A study of Mus musculus with 3 samples.

Results

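Crypt cells that carried transcripts of the MCM helicase, and that were neither Lgr5-positive stem cells nor Top2a-positive dividing cells, were taken from 3 single-cell RNA libraries of mouse small intestinal crypts. A barcode was chosen where it had at least 500 genes, at least 1000 unique molecular identifiers (UMIs, each 1 counted transcript) and at most 20% mitochondrial UMIs. It also had at least 2 UMIs of the epithelial gene Epcam, none of the leukocyte gene Ptprc, none of Lgr5, fewer than 5 of Clu and fewer than 2 of Top2a. The summed UMIs of Mcm2 to Mcm7 had to be at least 3 and to reach 300 counts per 1000000 UMIs of the cell (CPM). The limits gave 102 cells, here called S-phase cells, of 2745 epithelial cells and 14387 deposited barcodes. They were 28 cells of the control, 49 of the KO and 25 of the rescue library.

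All 3 groups were adult C57BL/6 mice of 2-3 months carrying Olfm4-IRES-eGFPCreERT2, a Cre recombinase made from the stem cell gene Olfm4 that acts after an inducer is given. The control group also carried CDC42+/flox, with 1 floxable allele of the small GTPase CDC42. The KO group carried CDC42flox/flox. The rescue group carried CDC42flox/flox with Yapflox/flox and Tazflox/+, so that 2 alleles of the coactivator YAP and 1 of its relative TAZ could be removed as well. Recombination starts only in cells that make Olfm4 and in their descendants, and the labels do not say what share of a crypt had recombined. Each group was 1 library of crypts digested with TrypLE and run with the 10x 3′ version 3 chemistry. With no replicate library there was no test between groups, and every interval below covers counting error only.

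Before DNA is copied, the origin recognition complex with Cdc6 and Cdt1 loads the ring of Mcm2 to Mcm7 onto origins in G1. In S phase the kinases Cdc7 and Cdk2 turn the ring into a running helicase with Cdc45 and the GINS proteins, and polymerases, the Pcna clamp and a supply of deoxynucleotides complete the work. E2F factors switch these genes on at the G1/S border, whereas genes of mitosis are switched on later, in G2. In crypts, most S-phase cells are transit-amplifying progenitors, the offspring of the Lgr5-positive stem cells at the crypt base.

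Promoter sequences show the letters that are known for each of these waves. Of the mouse RefSeq promoter windows (build GRCm38.p6, 250 bases before to 50 after each start), 1.85% held 1 of the E2F-type words TTTCGCGC, TTTGGCGC or TTTCCCGC on either strand, which is 2.12% of genes with a window. Among the MCM genes 4 of 5 with a window held 1, as did 5 of 10 licensing genes, 5 of 13 G1/S genes, 1 of 21 genes of G2 and mitosis and 0 of 14 cholesterol genes. The other replication lists gave 3 of 10 helicase activation and fork genes, 6 of 19 polymerase and ligation genes and 4 of 10 chromatin assembly genes. Of checkpoint and fork repair genes 2 of 12 held 1, and of deoxynucleotide genes 0 of 10. The word TTTGAA, the core of the cell cycle homology region of mitotic promoters, was in 17.9% of all windows on either strand and in 20.2% of genes. Of genes with a window, 15 of 21 of the G2 and mitosis list, 1 of 5 MCM genes and 0 of 10 licensing genes held it. Above the share of all genes it was also in 4 of 10 helicase activation and fork genes, 4 of 10 chromatin assembly genes and 5 of 13 G1/S genes. It was in 2 of 19 polymerase and ligation genes, 1 of 10 deoxynucleotide genes and 0 of 12 checkpoint and fork repair genes. The word thus did not divide mitosis from replication cleanly. A match describes letters and is neither a bound site nor a cause. The stretches below lie before the start, run 5′ to 3′ on the strand of the gene and have the word in capitals. The first 5 are replication genes and the last 4 are genes of mitosis, a list described below, each among the highest KO levels of its lists with a match before the start.
Mcm5 (chr8:75109334-75109393, plus strand): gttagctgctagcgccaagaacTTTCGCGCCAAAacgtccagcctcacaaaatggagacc
Mcm6 (chr1:128359719-128359778, minus strand): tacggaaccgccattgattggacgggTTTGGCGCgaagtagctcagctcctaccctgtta
Mcm7 (chr5:138172015-138172074, minus strand): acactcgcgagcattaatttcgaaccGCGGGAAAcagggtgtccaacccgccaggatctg
Hells (chr19:38930902-38930961, plus strand): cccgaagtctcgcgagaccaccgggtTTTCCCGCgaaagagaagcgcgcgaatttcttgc
Topbp1 (chr9:103305172-103305231, plus strand): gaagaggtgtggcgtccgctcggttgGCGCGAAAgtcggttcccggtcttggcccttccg
Mki67 (chr7:135716446-135716503, minus strand): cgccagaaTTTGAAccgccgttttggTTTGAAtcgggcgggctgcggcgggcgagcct
Cdc20 (chr4:118437344-118437387, minus strand): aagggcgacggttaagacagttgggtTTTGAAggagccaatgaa
Ccnb2 (chr9:70421690-70421747, minus strand): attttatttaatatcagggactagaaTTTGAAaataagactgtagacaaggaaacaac
Ube2c (chr2:164769874-164769928, plus strand): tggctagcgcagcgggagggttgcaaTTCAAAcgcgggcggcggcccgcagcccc
In Mcm5 2 overlapping words, 1 on each strand, make up the capitals, and in Mki67 the word occurs a second time in the stretch.

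The pooled S-phase cells held 836023 UMIs in control, 1852946 in KO and 981679 in rescue libraries. Median depth per cell was 34496.5, 37205 and 41130 UMIs, with a range over all cells of 1461 to 114322. No cell gave more than 8.65% of the UMIs of its library. The median mitochondrial share was 10.6%, 7.93% and 11.3%. No barcode sequence was shared between libraries among the S-phase cells, and none of them was among the 82 barcodes with the highest simulated-doublet scores. The targeted transcripts do not check the labels, because 3′ tags may lie outside the deleted part. Cdc42 stood at 280 CPM in control, 296 in KO and 346 in rescue cells. Yap1 was at 29.9, 37.2 and 27.5 CPM, and Wwtr1, which encodes TAZ, at 9.57, 10.8 and 4.08 CPM.

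The values that chose the cells are a description and no finding. The median of the summed Mcm level was 693 CPM in control, 552 in KO and 589 in rescue cells. The lowest cell inside the limit had 363, 300.1 and 320 CPM, and the highest epithelial cell outside it with at least 3 Mcm UMIs had 259, 290 and 294. Mcm6 was at 199, 104 and 145 CPM, Mcm3 at 127, 146 and 96.8 CPM, and Mcm7 at 160, 125 and 115 CPM. Mcm2 was at 68.2, 50.2 and 72.3 CPM, Mcm5 at 101, 96.1 and 86.6 CPM, and Mcm4 at 90.9, 69.6 and 67.2 CPM.

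Replication genes that the limits did not use were also high in these cells. Pcna, Gins2, Cdc6, Cdt1, Rrm2, Tyms, Uhrf1, Ung, Slbp and Dut together made 803 CPM in control, 818 in KO and 966 in rescue S-phase cells. That was 6.13 (95% interval 5.58-6.74), 10.4 (9.84-11.1) and 7.81 (7.25-8.42) times the level of epithelial cells that met the other limits but had fewer Mcm UMIs, called Mcm-low. The Ptprc-positive, Epcam-negative cells of the same libraries, a measure of free RNA as well as of their own, held 339, 271 and 350 CPM. Enterocyte genes were at 0.0291, 0.0316 and 0.0399 times the Mcm-low level. The immune list summed to 86.1, 12.4 and 44.8 CPM against at least 37854 in Ptprc-positive cells, and no gene of the immune, stromal, endothelial, tuft or enteroendocrine lists reached 20 UMIs in the pooled cells of any library.

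S-phase cells were 5.44% (exact Clopper-Pearson interval 3.64-7.76) of control, 3.26% (2.42-4.29) of KO and 3.44% (2.24-5.04) of rescue epithelial cells. The control share was above both others, and its interval overlapped theirs. How the replicating cells divided between the limits differed more. Cells above the Mcm limit, whatever their Lgr5, Clu and Top2a, were 21.2% (17.7-24.95) of control, 7.98% (6.66-9.47) of KO and 17.2% (14.5-20.2) of rescue epithelial cells. Of these Mcm-high cells 67.9% had an Lgr5 UMI in control, 10.8% in KO and 31.2% in rescue crypts. At least 2 Top2a UMIs were found in 19.3%, 51.7% and 72% of them. The S-phase cells are therefore what each library has left after unlike groups were taken away. These were chiefly Lgr5 cells in the control and chiefly Top2a cells in the KO and rescue libraries. Depth also sets who passes limits in UMIs: with every cell thinned to 10000 UMIs and shallower cells left out, the shares were 13.9%, 6.75% and 10.0%, with the control highest again. That order did not hold in every setting. With cells chosen by 8 other S-phase genes the shares were 4.08%, 4.06% and 3.31%, so control and KO were level. With no limit on Top2a they were 6.8%, 6.7% and 11.8%, and the rescue was highest.

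**Figure D1:**
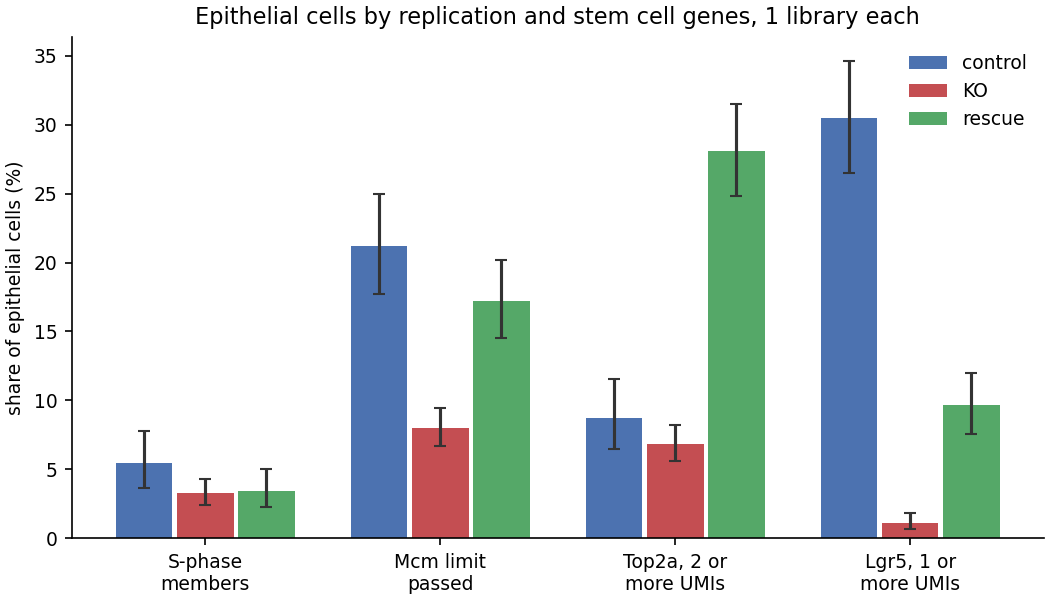
Bars give the share of epithelial cells (%) in each of the 3 libraries, with exact 95% binomial intervals, for S-phase cells, cells above the Mcm limit, cells with at least 2 Top2a UMIs and cells with an Lgr5 UMI. The S-phase shares lie between 3.26% and 5.44%, whereas Lgr5 cells range from 1.13% in the KO to 30.5% in the control library.

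Pooled counts were compared between libraries as log2 of the ratio of CPM + 1, for genes whose count reached 20 UMIs in either library, and a gene was counted past 2-fold as a description. In KO against control cells 8.59% of 7396 genes were at least 2-fold higher and 4.31% at least 2-fold lower, with a median over all genes of 0.15. In rescue against KO cells 2.03% of 7389 genes were higher and 9.47% lower, with a median of -0.23. In rescue against control cells 2.16% of 5564 genes were higher and 6.16% lower, with a median of -0.04. The comparisons share libraries and are not independent of each other. The numbers of higher and lower genes depended on scaling: rescue over KO gave 150 and 700 by total UMIs but 211 and 505 with TMM factors. Rescue over control gave 120 and 343 by total UMIs and 165 and 283 with TMM. TMM also moved the median of rescue over KO from -0.23 to -0.06.

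Genes that license origins were much alike in the 3 libraries. Every cell was chosen by its Mcm level, so genes that vary with the Mcm genes may be alike through that choice. This limit holds for the replication lists below as well, and its part was not tested. Of 9 measured licensing genes 0 were past 2-fold in KO against control or in rescue against KO, with medians of 0.10 and -0.02. In KO over control 8.59% of all genes were higher and 4.31% lower. In Mcm-low cells the KO over control median of licensing genes was -0.40, beside -0.30 for all genes. Cdt1, a loader of the MCM ring, was at 53.8 CPM in control, 65.3 in KO and 72.3 in rescue cells, and Gmnn, which encodes its inhibitor geminin, at 120, 116 and 114 CPM. Cdc6, the other loader, was at 35.9, 25.4 and 20.4 CPM, lowest in the rescue cells. Orc6 of the origin recognition complex was at 56.2, 70.7 and 97.8 CPM, which made rescue over control 1.74 (1.22-2.52).

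Helicase activation and fork genes had medians of 0.11 in KO over control and 0.12 in rescue over KO. Of 9 measured genes 1 was past 2-fold higher in the first, beside 8.59% of all genes. That gene, the fork protection factor Donson, stood at 9.57, 20.5 and 22.4 CPM from 8, 38 and 22 UMIs, and its KO over control ratio of 2.14 had an interval of 0.985-5.32. Topbp1, which helps to switch on the helicase and the ATR kinase, was at 37.1, 60.4 and 77.4 CPM. In rescue over control 2 of 9 measured genes, Donson and Topbp1, were past 2-fold higher, beside 2.16% of all genes. Gins2, a GINS subunit, was at 39.5, 42.6 and 21.4 CPM, and Timeless, a fork stabiliser, at 31.1, 19.97 and 18.3 CPM. Timeless was thus highest in the control and Gins2 lowest in the rescue cells.

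Polymerases, clamp loaders and ligation genes were near even between KO and control. All 22 were measured in KO against control, 0 of them past 2-fold, beside 8.59% of all genes higher and 4.31% lower. The median was -0.07, and that of rescue over KO was 0.00. The replication protein A subunit Rpa3 was at 103, 59.9 and 103 CPM and the catalytic polymerase delta gene Pold1 at 27.5, 17.8 and 21.4 CPM, both lowest in KO. Lig1, the ligase that seals lagging-strand fragments, was at 77.8, 90.1 and 72.3 CPM. Pcna, the gene of the list past 2-fold in rescue over control, was at 46.7, 79.9 and 112 CPM, which is 1.71 (1.20-2.50) in KO over control and 2.40 (1.65-3.56) in rescue over control. Where the limits were applied to cells thinned to 10000 UMIs, KO over control of Pcna was -0.05 on the log2 scale, beside 0.76 unthinned. With each cell thinned to 5000 UMIs, Pcna was seen in 20.8%, 29.8% and 54.5% of S-phase cells and in 19.3%, 15% and 22.1% of Ptprc-positive cells. The control share of Pcna is therefore close to that of free RNA and of the immune cells themselves, and the rescue share above it.

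Deoxynucleotide genes had a median of 0.55 in KO over control over 11 genes, with 8 above 0. Of 12 clustered histones, whose transcripts mostly lack poly(A) tails, only 2 were measured, at -0.26 for Hist1h2bc and 1.62 for Hist1h2ap. Rrm2, the regulated subunit of ribonucleotide reductase, was at 26.3, 64.2 and 63.2 CPM, 2.44 (1.54-4.04) times higher in KO than in control and 2.40 (1.46-4.10) times higher in rescue than in control. It was the only deoxynucleotide gene past 2-fold in either. Thinning did not keep the first of these: where the limits were applied to cells thinned to 10000 UMIs, KO over control of Rrm2 was -0.08 on the log2 scale. Tyms, which makes thymidylate, was at 70.6, 121 and 103 CPM, and Dtymk, which phosphorylates it, at 170, 265 and 213 CPM. Both were lowest in control cells, while Dut, which clears dUTP, was at 199, 203 and 255 CPM.

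Bulk nucleotide synthesis had 2 of 14 genes past 2-fold higher in KO over control, beside 8.59% of all genes. Cad, which carries the first steps of pyrimidine synthesis, was at 20.3 CPM in control, 58.8 in KO and 20.4 in rescue cells, 2.89 (1.73-5.15) times higher in KO than in control. Impdh1 of guanine nucleotide synthesis was at 8.37, 21.1 and 5.09 CPM, but Ptprc-positive KO cells held 65.5 CPM of it. The median of the list was 0.02, below that of all genes.

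Chromatin assembly genes were alike in the 3 libraries. None of 10 histone chaperone and methylation upkeep genes was past 2-fold in any of the 3 comparisons, and the medians were -0.01, 0.00 and -0.03. For all genes the KO over control shares were 8.59% higher and 4.31% lower. The histone carrier Nasp was at 208, 205 and 202 CPM. Uhrf1, which guides DNA methyltransferase to new strands, was at 71.8, 51.3 and 80.5 CPM, Hells, a chromatin remodeller, at 135, 103 and 127 CPM, and the FACT subunit Ssrp1 at 140, 180 and 107 CPM. Uhrf1 and Hells were lowest in KO, Ssrp1 highest there.

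**Figure D2:**
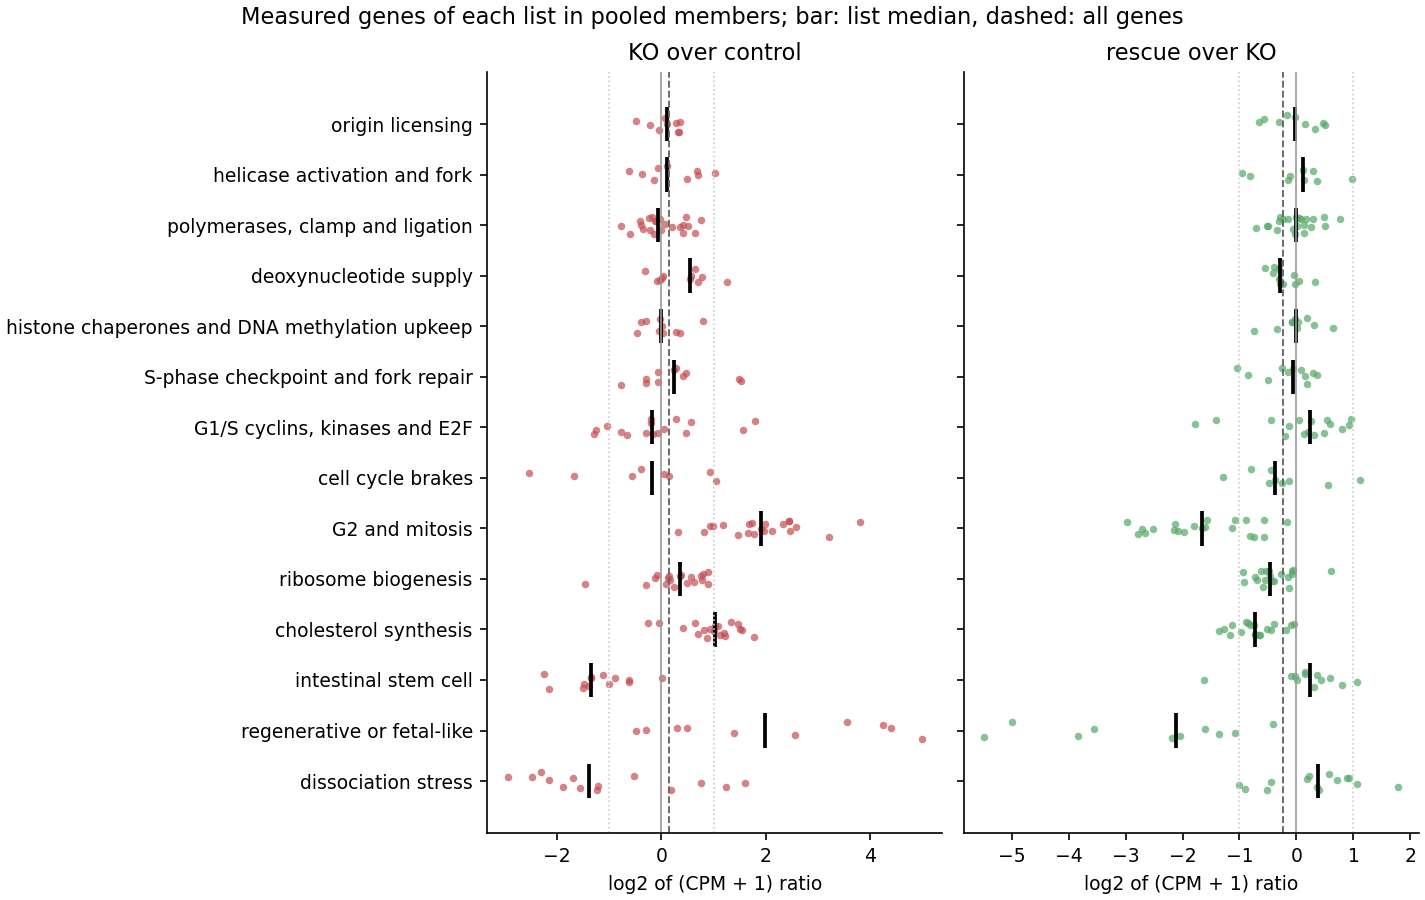
Each point is a measured gene of a list in pooled S-phase cells, placed by log2 of the (CPM + 1) ratio for KO over control and rescue over KO; bars are list medians, dashed lines the median of all genes and dotted lines 2-fold. The replication lists cluster near 0, while all 21 measured genes of G2 and mitosis lie above 0 in KO over control and below 0 in rescue over KO.

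Drivers of the G1/S step moved in unlike directions. Of 16 measured cyclin, kinase and E2F genes 2 were past 2-fold higher in KO than in control and 3 lower, with a median of -0.18. Over all genes the shares were 8.59% higher and 4.31% lower. Ccnd2, a D-type cyclin, was at 577 CPM in control, 278 in KO and 543 in rescue cells, 2.07 (1.83-2.35) times lower in KO. Cdk2, the kinase of cyclins E and A, was at 49.0, 19.4 and 37.7 CPM, and Cdk6, a partner of D cyclins, at 98.1, 40.5 and 46.9 CPM. The rescue level was thus near the control for Ccnd2 and near the KO for Cdk6. Ccnd1 was at 153, 137 and 191 CPM and Ccne1 at 31.1, 19.4 and 29.5 CPM, both under 2-fold. The 2 higher genes act into G2 as well: Ccna2, cyclin A, was at 33.5, 101 and 28.5 CPM and Cks1b, a cofactor of cyclin-dependent kinases, at 35.9, 127 and 46.9 CPM. For Ccnd2, Ptprc-positive cells held 509, 242 and 398 CPM, in the same order as the S-phase cells, and the part of free RNA in its difference was not tested.

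Brakes on the cycle were led by 2 antiproliferative genes of 1 family. Btg2 was at 855, 146 and 214 CPM and Tob1 at 238, 73.9 and 67.2 CPM, so that Btg2 was 5.87 (5.10-6.78) and Tob1 3.22 (2.58-4.03) times lower in KO than in control. Btg2 is also an immediate early gene, and the dissociation stress list described below was lower in the same cells. Cdkn1a, which encodes the inhibitor p21, was at 79.0, 53.4 and 21.4 CPM and thus lowest in the rescue cells, where it was 3.69 (2.23-6.35) times under the control. Ptprc-positive cells held 104, 265 and 71.2 CPM of Cdkn1a, above the S-phase cells in each library, so its level is not read as their own. Over 8 measured brakes the KO over control median was -0.17. The 9 measured p53 targets had a median of -0.28 with 0 past 2-fold, beside 8.59% of all genes higher and 4.31% lower.

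Checkpoint and fork repair genes had a KO over control median of 0.24 over 11 genes, near that of all genes. Wee1, the kinase that holds Cdk1 back, was at 4.79, 15.7 and 20.4 CPM from 4, 29 and 20 UMIs, which gave 3.27 (1.15-12.8) in KO over control. Fanca, of the Fanconi anaemia complex, was at 3.59, 11.9 and 6.11 CPM. Msh6, of mismatch repair, was at 58.6, 34 and 38.7 CPM, lower in KO and rescue than in control cells, under 2-fold.

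The largest difference within the cell cycle lay past S phase. Summed over 23 genes of G2 and mitosis, S-phase cells held 544 CPM in control, 1677 in KO and 612 in rescue libraries. KO over control was 3.08 (2.79-3.41), rescue over KO 0.365 (0.334-0.399) and rescue over control 1.12 (0.994-1.27). In KO against control 17 of 21 measured genes were at least 2-fold higher, beside 8.59% of all genes. All 21 were above 0, with a median of 1.92 against 0.15 for all genes. In rescue against KO 15 of 21 were at least 2-fold lower, beside 9.47% of all genes, with a median of -1.66 against -0.23. The Ptprc-positive cells held 370, 630 and 434 CPM of the list.

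By role, proliferation and spindle genes led this list. Mki67, a coat protein of mitotic chromosomes, was at 27.5, 154 and 38.7 CPM and had a UMI in 10 of 28, 45 of 49 and 15 of 25 cells. KO over control was 5.61 (3.67-8.99) and KO over rescue 3.99 (2.84-5.75). Birc5, survivin of the chromosomal passenger complex, was at 51.4, 284 and 92.7 CPM. Hmmr, a spindle assembly protein, was at 4.79, 52.4 and 7.13 CPM from 4, 97 and 7 UMIs. In each of these the KO stood apart, and the rescue level was nearer to the control.

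Plk1, a mitotic kinase, was at 4.79, 33.5 and 7.13 CPM and Tpx2, which activates Aurora A, at 7.18, 39.9 and 6.11 CPM. Cdc20, which activates the anaphase ligase, was at 40.7, 141 and 21.4 CPM, and its rescue level was 1.90 (1.07-3.45) times under the control. Ttk, a spindle checkpoint kinase, was at 0, 12.95 and 1.02 CPM. The smallest KO over control differences of the list were those of Kif23, a cytokinesis motor, at 23.9, 30.2 and 13.2 CPM, and Ccnb2, a B-type cyclin, at 74.2, 132 and 88.6 CPM. Cdk1, the kinase of mitotic entry, broke the pattern: at 8.37, 35.6 and 31.6 CPM it was as high in rescue as in KO cells.

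Single cells showed the same split. The list stood at a median of 280 CPM per control cell (range 0 to 2257), 1626 per KO cell (75 to 4545) and 375 per rescue cell (0 to 2061). At least 1000 CPM was reached by 35 of 49 KO cells (71.4%, 56.7-83.4), against 6 of 28 in the control (21.4%, 8.30-41.0) and 3 of 25 in the rescue library (12.0%, 2.55-31.2). The ranges overlapped, and most KO cells lay above most cells of the others. Thinned to 5000 UMIs, Mki67 was seen in 16.7%, 46.8% and 22.7% of S-phase cells and in 6.82%, 13.3% and 4.02% of Ptprc-positive cells, where unthinned shares in S-phase cells were 35.7%, 91.8% and 60.0%. The name S-phase thus describes the replication genes of these cells and does not set a KO cell within 1 phase.

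The Top2a limit bears on this result, since Top2a is itself a gene of G2 and mitosis. A single Top2a UMI, which the limit allows, was found in 4 of 28, 18 of 49 and 13 of 25 cells. Among cells with no Top2a UMI, 5 of 24 control, 20 of 31 KO and 0 of 12 rescue cells reached 1000 CPM of the list. Top2a UMIs were also used to choose the cells, so these counts are a description. With no limit on Top2a the rescue over KO median of the list was -0.23, beside -0.10 for all genes in that setting, and the rescue over control median was 1.48. With members chosen by 8 other S-phase genes in place of Mcm genes, KO over control was 0.98. In cells with at least 2 Top2a UMIs, 0 of 23 genes of the list were past 2-fold between KO and control, with a median of 0.21, and Mcm-low KO cells had a median of -0.74.

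**Figure D3:**
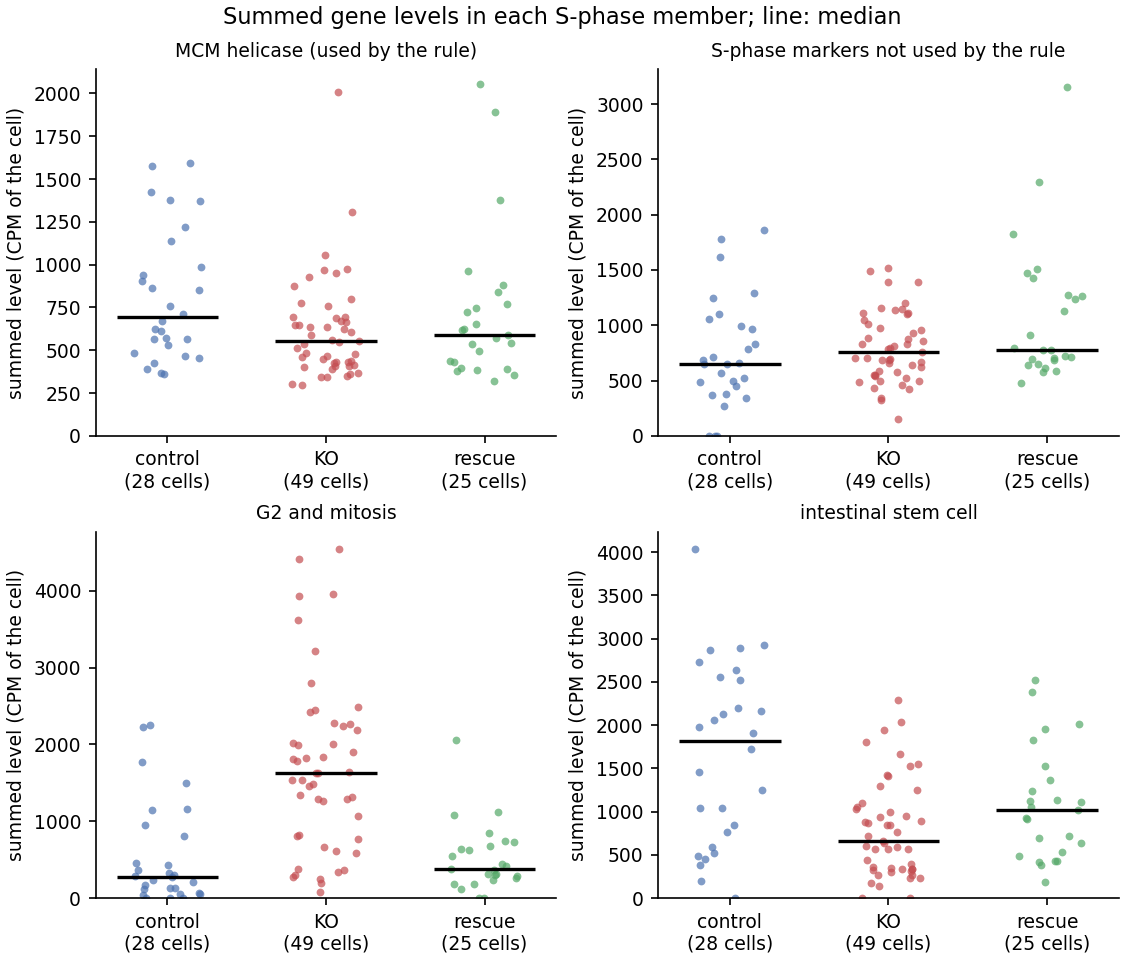
Each point is 1 S-phase cell, placed by its summed level (CPM of the cell) of the MCM genes used by the limits, of 10 other S-phase genes, of G2 and mitosis genes and of stem cell genes; lines are medians. The S-phase panels overlap widely, whereas the median of G2 and mitosis is 1626 CPM in KO against 280 and 375 in control and rescue cells.

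Set beside other epithelial cells of the same library, the KO S-phase cells stood closer to the Top2a cells. Their G2 and mitosis level was 0.668 times that of KO Top2a cells, while the control ratio was 0.242 and the rescue ratio 0.221. Over Mcm-low cells the ratios were 12.4 in KO, 2.09 in control and 2.68 in rescue libraries. The KO ratio also reflects lower levels in its Mcm-low cells. There the KO over control median of the list was -0.74, beside -0.30 for all genes. The S-phase genes not used by the limits stood at 1.04, 1.12 and 1.34 times the Top2a cells in control, KO and rescue, so replication genes were about as high in both groups of cells.

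**Figure D4:**
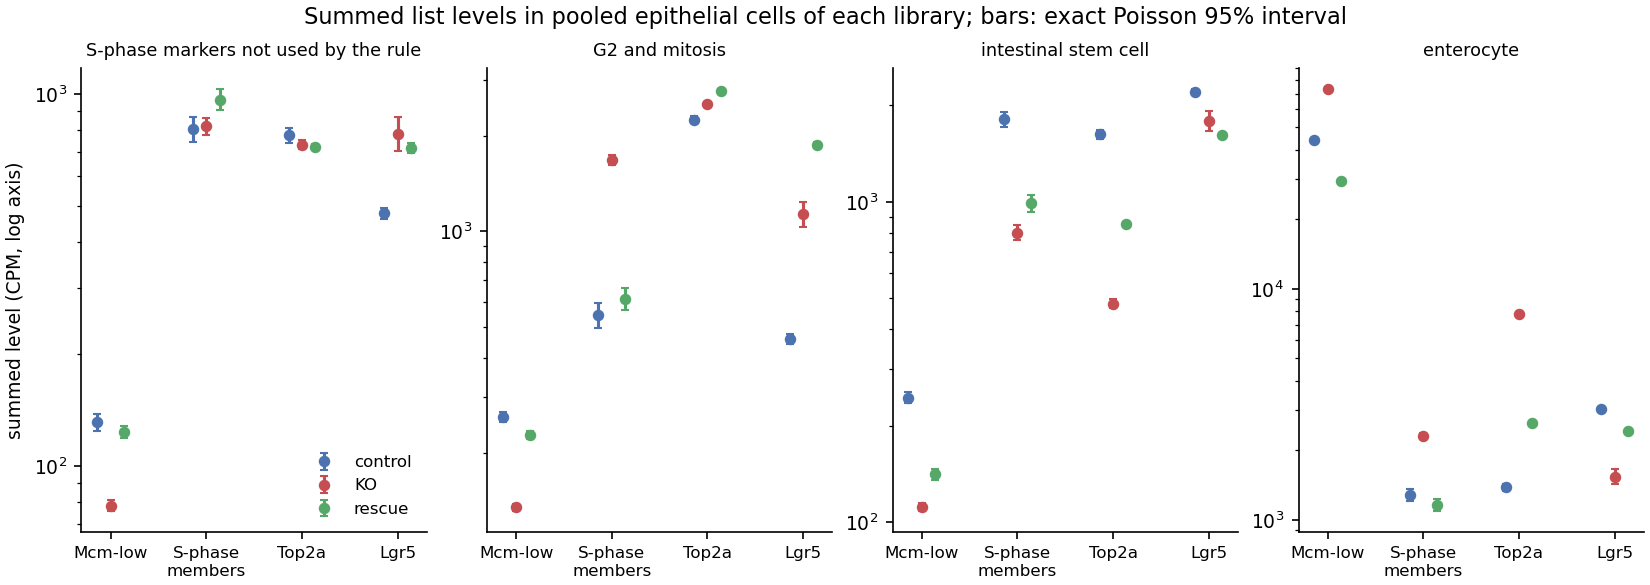
Points give summed CPM (log axis) of 4 gene lists in Mcm-low, S-phase, Top2a and Lgr5 epithelial cells of each library, with exact Poisson 95% intervals. In G2 and mitosis genes the KO S-phase cells, at 1677 CPM, lie near the Top2a cells, and the control and rescue S-phase cells, at 544 and 612 CPM, lie lower.

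Ribosome biogenesis, which growing cells need, was above 0 in 15 of 19 genes in KO over control, with a median of 0.36 and 0 past 2-fold higher. All genes had a median of 0.15, with 8.59% past 2-fold higher. The median of the list was 0.39 in Top2a cells but -1.075 in Mcm-low cells, against -0.30 for all genes there. The nucleolar proteins Npm1 and Ncl were at 1708, 2622 and 1785 CPM and at 1105, 1637 and 988 CPM. Their regulator Myc ran the other way at 52.6, 18.4 and 28.5 CPM, 2.87 (1.79-4.63) times lower in KO than in control. In rescue over KO 18 of 19 genes were below 0, with a median of -0.47 against -0.23 for all genes.

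Stem cell genes other than Lgr5 were lower in KO and rescue than in control S-phase cells. The list summed to 1809 CPM in control, 803 in KO and 989 in rescue cells, with 118, 31.7 and 60.7 CPM in Ptprc-positive cells. In KO against control 9 of 13 measured genes were at least 2-fold lower, beside 4.31% of all genes, with a median of -1.34. In rescue against control 6 of 12 were, beside 6.16% of all genes, with a median of -1.06. In rescue against KO the median was 0.23 with 1 gene past 2-fold each way, beside 2.03% of all genes higher and 9.47% lower. The limit on Lgr5 removed cells with any Lgr5 UMI in each library, so these are levels in what was left.

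Ascl2, the transcription factor of the stem cell programme, was at 57.4 CPM in control, 11.3 in KO and 20.4 in rescue cells, 5.07 (2.98-8.91) times lower in KO than in control. Olfm4, the gene that drives Cre here, was at 175, 61.5 and 79.5 CPM and had a UMI in 18 of 28, 26 of 49 and 18 of 25 cells. Thinned to 5000 UMIs, Olfm4 was seen in 41.7%, 23.4% and 18.2% of cells and Ascl2 in 20.8%, 6.38% and 13.6%. Control cells were the highest in both, with KO and rescue below.

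Other genes of the stem cell list, picked after their values were seen, included known Wnt targets. Axin2 was at 92.1, 34.5 and 34.6 CPM, Rnf43 at 62.2, 23.8 and 23.4 CPM and Sp5 at 44.3, 9.18 and 14.3 CPM. Rescue levels were near the KO for all of them. Slc12a2, an ion cotransporter of the crypt base, was at 639, 293 and 365 CPM, and Prom1, at 86.1, 55.6 and 84.6 CPM, was the stem cell gene whose rescue level lay closest to the control. The stem cell list was lower in KO also in Mcm-low cells (median -1.58) and in Top2a cells (-1.80).

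Regenerative or fetal-like genes, a programme linked to YAP in injured gut, summed to 2111 CPM in control, 4066 in KO and 1797 in rescue S-phase cells. In KO against control 6 of 10 measured genes were at least 2-fold higher, beside 8.59% of all genes, with a median of 1.98. In rescue against KO 9 of 10 were lower, beside 9.47% of all genes, with a median of -2.12. Other epithelial cells shared the shift. KO over control medians of the list were 1.73 in Mcm-low cells and 2.51 in Top2a cells. Rescue over KO medians there were -2.10 and -2.14. S100a6, a calcium-binding protein, was at 49.0, 949 and 20.4 CPM and reached 100 CPM in 3 of 28, 47 of 49 and 0 of 25 cells. The Ptprc-positive cells of the KO held more of the list than the S-phase cells did, at 5499 CPM against 458 and 1001 CPM in control and rescue. They had 1202 CPM of S100a6, 691 of Anxa2 against 552 in S-phase cells, 343 of Anxa3 against 71.2 and 268 of Anxa1 against 30.8. These 4 genes are therefore not read as expression by the S-phase cells. The KO Ptprc-positive pool was unlike the other pools. In it 95 of 125 cells lay under 10000 UMIs, against 361 of 366 in control and 448 of 472 in rescue. Its median Mcm level was 40.55 CPM per cell, against 0 in control and 0 in rescue. How much of its RNA was free was not tested. Thinned to 5000 UMIs, S100a6 was in 91.5% of KO S-phase cells and in 90.0% of KO Ptprc-positive cells. Krt19, an epithelial keratin, was well above that background at 1343, 1888 and 1425 CPM against at most 185, and its KO over control ratio was 1.41 (1.31-1.51).

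Few YAP and TAZ targets were measured, 5 of 24. Cyr61, a matricellular protein, was at 429 CPM in control, 24.8 in KO and 48.9 in rescue cells, 17.3 (12.7-24.1) times lower in KO. It is also an immediate early gene. The median of the 5 was -0.75 in KO over control and 0.39 in rescue over KO. In Mcm-low cells, with 15 targets measured, the KO over control median was 0.73. In Top2a cells, with 9 measured, it was -0.55. Ligands of the EGF receptor, which drive crypt proliferation, were mixed: Areg was at 316, 224 and 73.3 CPM, Hbegf at 444, 252 and 202 CPM, and Btc at 9.57, 30.8 and 3.06 CPM. Areg was lowest in rescue and Btc highest in KO cells.

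Immediate early and heat shock genes, which enzymatic digestion can switch on, differed between the libraries. They summed to 11406 CPM in control, 5525 in KO and 5968 in rescue S-phase cells. Of the 14 genes 9 were at least 2-fold lower in KO than in control, beside 4.31% of all genes, with a median of -1.39. Fos was at 1616, 690 and 780 CPM, Atf3 at 1252, 250.4 and 372 CPM and Junb at 1179, 264 and 498 CPM. Hspa1a, a heat shock gene, went the other way at 92.1, 280.1 and 150 CPM. Mcm-low cells showed a median of -1.44 for the list. These values move with Btg2, Cyr61 and Egr2, and the part of digestion in those differences was not tested.

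Cholesterol synthesis was higher in KO S-phase cells. In KO against control 11 of 19 measured genes were at least 2-fold higher, beside 8.59% of all genes, and 17 above 0, with a median of 1.02. In rescue against KO 4 of 19 were at least 2-fold lower, beside 9.47% of all genes, and all 19 below 0, with a median of -0.73. Fdps, which makes farnesyl diphosphate, was at 124, 344 and 208 CPM, 2.77 (2.25-3.44) times higher in KO than in control. The rescue cells stood between control and KO. The list summed to 976, 2022 and 1229 CPM against 906, 727 and 936 in Ptprc-positive cells. The lists of G2 and mitosis and of cholesterol synthesis, both higher in KO, differed in reach. Cholesterol genes were higher also in Top2a cells (median 1.03) and Mcm-low cells (0.80), and no test of the difference was possible.

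The list of mTORC1 and ATF4 targets stood at a median of 0.68 in KO over control, with 4 of 11 past 2-fold higher beside 8.59% of all genes. Other epithelial cells did not share this. In Mcm-low cells the median was -0.98 against -0.30 for all genes, with 7 of 15 at least 2-fold lower. In Top2a cells it was -0.08. Phgdh, the first enzyme of serine synthesis, was at 69.4, 159 and 57.1 CPM, 2.30 (1.73-3.096) times higher in KO than in control. Atf4 itself was at 336, 217 and 223 CPM, highest in the control.

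Rescue S-phase cells carried MHC class II transcripts, which present antigen to helper T cells. The 7 genes summed to 88.5 CPM in control, 8.10 in KO and 1410 in rescue cells. All 6 measured genes were at least 2-fold higher in rescue than in KO (median 5.60, beside 2.03% of all genes) and than in control (median 3.54, beside 2.16%). The other epithelial cells of the library carried them too: rescue over KO had a median of 5.87 in Top2a cells and 4.48 in Mcm-low cells, with 7 of 7 genes past 2-fold in each, and rescue Mcm-low cells summed to 1443 CPM. Cd74, the invariant chain, was at 46.7, 3.24 and 873 CPM, from 39, 6 and 857 UMIs, so rescue over control was 18.7 (13.6-26.5). H2-Ab1 was at 16.8, 0 and 190 CPM, at least 117-fold higher in rescue than in KO against a floor of 3 UMIs over the pooled cells. At least 500 CPM of the list was reached by 22 of 25 rescue, 0 of 49 KO and 2 of 28 control cells. One of those control cells, of 1900 UMIs, also held 10526 CPM of immune genes.

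The Cd74 share of rescue S-phase cells lay well above that of the Ptprc-positive cells. Thinned to 5000 UMIs, Cd74 was in 100% of rescue S-phase cells against 25.1% of rescue Ptprc-positive cells, and in 4.17% and 4.26% of control and KO S-phase cells against 11.9% and 23.3%. The interferon gene Bst2 was at 17.9, 11.3 and 47.9 CPM and Irf1 at 55.02, 29.7 and 73.3 CPM, with 3 of 15 interferon genes measured and a rescue over KO median of 1.28.

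Secretory genes sat in a few cells. Goblet genes summed to 5148 CPM in control, 892 in KO and 4073 in rescue cells. Of 8 measured, 5 were at least 2-fold lower in KO than in control, beside 4.31% of all genes. Cells with at least 2000 CPM of the list numbered 5 of 28, 3 of 49 and 3 of 25, and they held 95.6%, 36.2% and 96.0% of its UMIs. Without them the level was 275 CPM in control, 593 in KO and 182 in rescue cells, so the difference from KO turned. Ptprc-positive KO cells held 1067 CPM, above the KO S-phase cells. Paneth genes, at 563, 25.4 and 410 CPM against 1297, 125 and 922 in Ptprc-positive cells, and enterocyte genes, at 1285, 2307 and 1162 against 945, 2499 and 1219, were near or below that background and are not read as expression.

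Named by size across all genes, and not by list, the largest KO over control differences began with lipid enzymes. Scd2, a fatty acid desaturase, was at 1.20 CPM in control, 187 in KO and 62.1 in rescue cells, from 1, 346 and 61 UMIs. Mboat1, a lysophospholipid acyltransferase, was at 0, 58.3 and 11.2 CPM, at least 16.2-fold higher in KO than in control against the same floor. Thinned to 5000 UMIs, Scd2 was in 0%, 46.8% and 31.8% of S-phase cells. The 0 of 24 control cells allow a share of up to 12.5%.

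Phlda2, a small pleckstrin-domain protein, was at 5.98, 68.5 and 14.3 CPM and S100a14, an epithelial calcium-binding protein, at 9.57, 75.6 and 7.13 CPM. Both were at 1.06 CPM or less in Ptprc-positive cells. Gsta4, which detoxifies lipid peroxidation products, was at 13.2, 148 and 20.4 CPM, and Reep4, which clears endoplasmic reticulum from mitotic chromosomes, at 13.2, 91.8 and 21.4 CPM. In all of these the rescue level was nearer to the control than to the KO. They were named for a high KO over control ratio, which by itself favours that order, so it is a description only.

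Genes lower in KO included adhesion, metabolic, ligand and immediate early genes. Ceacam10, an adhesion molecule relative, was at 70.6, 0 and 77.4 CPM, at least 43.6-fold lower in KO than in control against a floor of 3 UMIs over the pooled cells. Adh1, an alcohol dehydrogenase, was at 153, 9.18 and 62.1 CPM, and Tnfsf10, the death ligand TRAIL, at 50.2, 4.86 and 44.8 CPM. Gas6, a ligand of TAM receptors, was at 50.2, 3.78 and 5.09 CPM and Edn2, an endothelin, at 168, 13.5 and 27.5 CPM. The rescue level was thus near the control for Ceacam10 and Tnfsf10 and near the KO for Gas6 and Edn2. Egr2 was at 93.3, 1.62 and 27.5 CPM. Rnase1, Guca2a and Selm, at 67.0, 134 and 164 CPM in control, belonged to the goblet-rich cells: without these the control level was 7.20, 4.32 and 4.32 CPM.

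Antimicrobial lectins of the Reg family were among the highest genes of rescue over KO; Reg3b and Reg3g are close paralogs, and how reads shared by both were counted is unknown. Reg3b was at 5.98 CPM in control, 116 in KO and 2158 in rescue cells, 18.7 (16.2-21.6) times higher in rescue than in KO. Reg3g was at 13.2, 85.3 and 1533 CPM. In the KO 1 cell gave 67.3% of the Reg3b UMIs, while the highest rescue cell gave 30.1%. Thinned to 5000 UMIs, Reg3b was in 12.5%, 19.1% and 90.9% of S-phase cells and in 6.25%, 18.3% and 73.9% of Ptprc-positive cells, so it was spread through the rescue library, with 317 CPM in its Ptprc-positive cells. Dmbt1, another mucosal defence gene, was at 767, 900.2 and 2420 CPM. Reg1 was at 17.9, 41.0 and 166 CPM, with 77.6% of its KO UMIs in 1 cell.

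Other genes named by size in rescue over KO had their lowest level in KO cells. Oat, ornithine aminotransferase, was at 1093, 213 and 748 CPM, 5.13 (4.55-5.79) times lower in KO than in control and 3.51 (3.099-3.97) times higher in rescue than in KO. Arg2, the mitochondrial arginase, was at 89.7, 20.5 and 102 CPM, and Rragd, a GTPase that signals amino acids to mTORC1, at 34.7, 1.08 and 55.01 CPM. Tcea3, an elongation factor, was at 46.7, 14.6 and 61.1 CPM and Tifa, an adaptor of NF-kappaB signalling, at 35.9, 14.6 and 59.1 CPM. In all 5 the KO was lowest and the rescue near or above the control. They were named for a high rescue over KO ratio, which by itself favours a low KO level.

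Other genes were lowest in the rescue cells. Edn1, an endothelin, was at 141, 139 and 17.3 CPM, 8.15 (4.88-14.5) times lower in rescue than in control, and Cmbl, a hydrolase, at 67.0, 103 and 12.2 CPM. Gkn3, a secreted gastrokine, was at 112, 85.8 and 18.3 CPM. Ttr, the transthyretin carrier, was at 39.5, 57.8 and 3.06 CPM and Hddc3, a hydrolase, at 26.3, 68.0 and 4.08 CPM. Akr1c19, an aldo-keto reductase, was at 37.1, 119 and 9.17 CPM. Gdf15, a stress cytokine, was at 10.8, 69.6 and 6.11 CPM and thus high in KO only among the 3, with 32.6% of its KO UMIs in 1 cell.

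**Figure D5:**
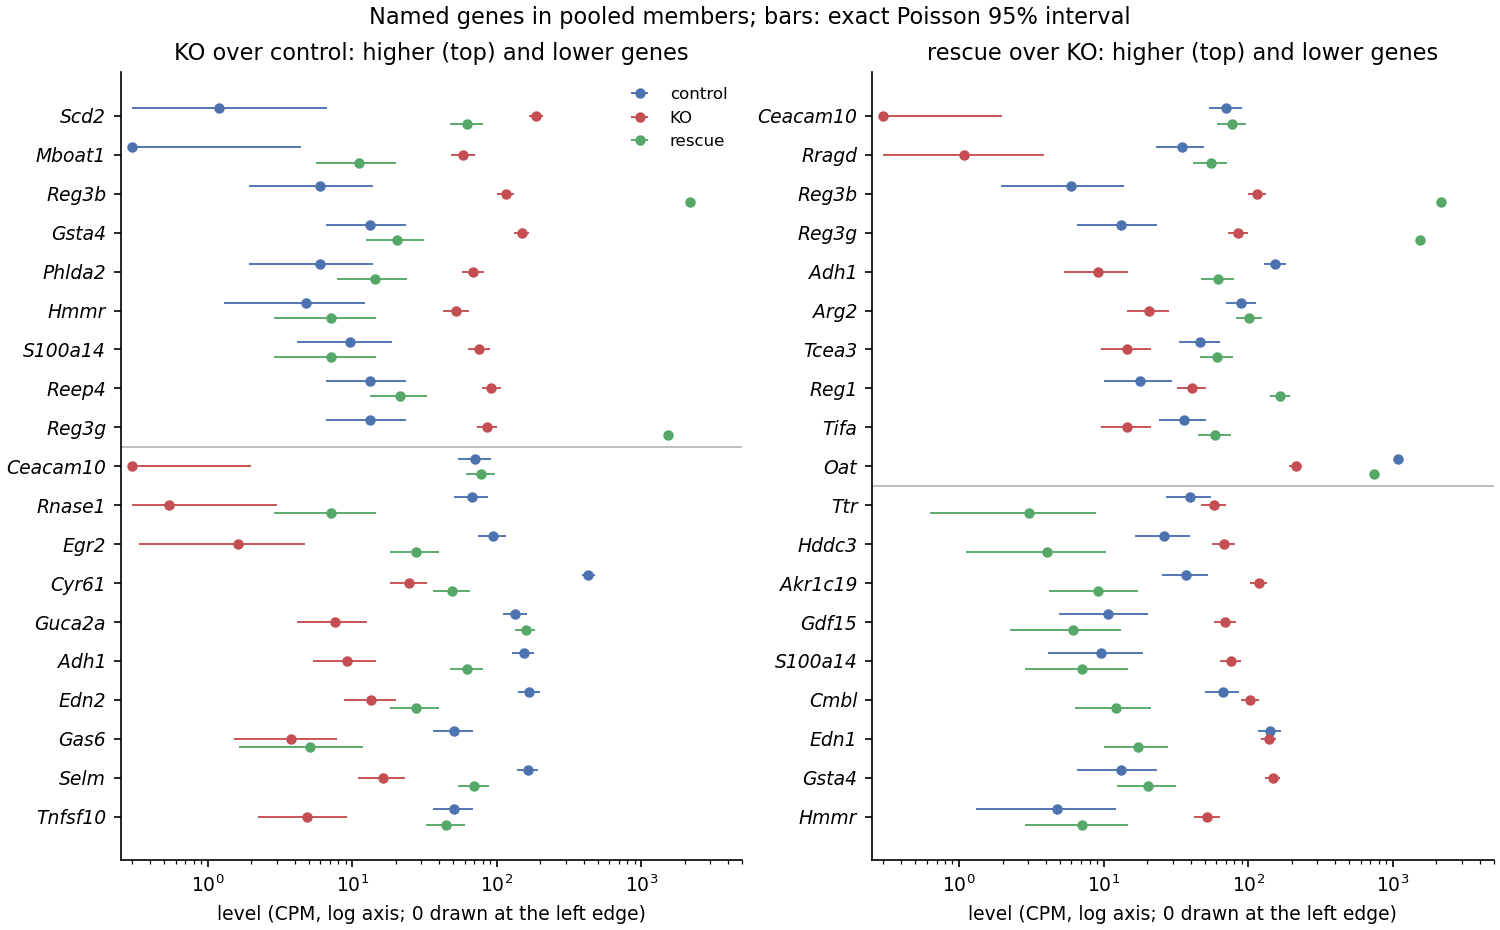
Levels (CPM, log axis) of genes among those that differed most between pooled S-phase cells, for KO over control and for rescue over KO, in control, KO and rescue libraries with exact Poisson 95% intervals. Reg3b and Reg3g reach 2158 and 1533 CPM in rescue cells, and Ceacam10 has no UMI in KO cells.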

How the data were processed

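Per the labels, crypts of the small intestine were digested with TrypLE and sequenced with the 10x 3′ kit, version 3, in 1 library per genotype. The deposited matrices hold counts of UMIs per gene and barcode for 28692 genes, made by the authors with Cell Ranger. The submitters' processing notes name version 1.3.0, and the file headers name 3.0.2 for control and KO and 3.1.0 for rescue. No source used here names a build. Groups follow the labels. Whole libraries held 6152, 4786 and 3449 barcodes with 58433966, 85525811 and 64355665 UMIs.

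Cells were chosen by the limits given above. UMIs were summed over the chosen cells of a library and given as CPM with exact Poisson intervals, and ratios have conditional exact binomial intervals, all at 95%. A pseudocount of 1 CPM entered log2 ratios. At 20 UMIs such intervals are wide. Doublets were scored with Scrublet in scanpy 1.11.5 at 0.8% per 1000 barcodes and removed only as an alternative. The ratio and interval code was tested on simulated data. Python 3.11.15, numpy 2.4.6, scipy 1.17.1, pandas 2.3.3, R 4.3.3, edgeR 4.0.16 and DESeq2 1.42.0 were used, the last 2 for scaling factors only. Promoter windows came from RefSeq. Of the 6 MCM genes, Mcm4 had no window.

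Genes named by size were the 10 highest and 10 lowest per comparison with at least 50 CPM in 1 library, a UMI in at least 20% of cells of the higher library, a ratio interval excluding 1 and at least 2 times the CPM of Ptprc-positive cells. Mitochondrial, ribosomal protein, sex-linked and lineage list genes were left out. Cdc42, Yap1, Wwtr1, the MCM genes, Pcna, Rrm2, Ccnd1, Ccnd2, Ccne1, Cdkn1a, Mki67, Olfm4 and Ascl2 were named always, and lists by their 2 highest and 2 lowest genes. Other genes of the lists were picked for their roles after their values were seen. The cells and lists were chosen with earlier results of these data known. A few genes that met these rules are not reported here.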

Additional observations from a re-analysis of the deposited data

How the results depend on the processing

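With 1 library per group, no library could be left out, and 28, 49 and 25 cells set the precision: a gene under about 20 UMIs has an interval spanning more than 2-fold. No paired analysis was possible because each group has 1 library. Alternatives named by Top2a at 0, by the deepest cell left out or by 25 CPM were added after seeing the data. Of 36 values of the shares 24 stayed within the main interval and 12 moved. Of 126 counts of genes 95 stayed within 1.5 times and 31 moved, while 208 of 1695 list medians and 211 of 1836 named-gene values moved. The sign differed from the reported one in 182 of the list medians and 60 of the named-gene values, and in 4 and 10 of those whose reported value was at least 2-fold. The cause was not tested except where fewer genes or cells entered.

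Shares moved as follows. At 500 Mcm CPM they were 1.86% in KO and 2.20% in rescue. With Top2a at 0 they were 2.06% and 1.65%. In cells thinned to 10000 UMIs they were 13.9% in control, 6.75% in KO and 10.0% in rescue. With 10% mitochondrial UMIs they were 5.01% in KO and 1.77% in rescue, from 41 and 3 cells. Without the Lgr5 limit control was 17.1%, and without the Top2a limit KO was 6.71% and rescue 11.8%.

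Counts of genes past 2-fold moved as follows. For KO over control, higher genes were 1433 at 1 UMI, 1006 at 5 UMIs, 375 at 25 CPM, 991 at 10% mitochondrial UMIs and 422 at a pseudocount of 5. Lower genes were 1821 at 1 UMI, 828 at 5 UMIs and 848 without the Lgr5 limit. For rescue over KO, higher genes were 96 with Top2a at 0, 383 with cells weighted equally, 1171 at 1 UMI, 445 at 5 UMIs, 249 without the Lgr5 limit and 385 without the Top2a limit. Lower genes were 388 thinned, 1641 at 1 UMI, 1166 at 5 UMIs, 351 at 25 CPM, 1397 at 10% mitochondrial UMIs, 410 without the Top2a limit and 441 at a pseudocount of 5. For rescue over control, higher genes were 66 with Top2a at 0, 308 weighted equally, 1264 at 1 UMI, 401 at 5 UMIs, 489 without the Top2a limit and 79 at a pseudocount of 5. Lower genes were 2176 at 1 UMI, 1015 at 5 UMIs, 167 at 10% mitochondrial UMIs and 726 without the Lgr5 limit.

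Values that turned sign from a reported value of at least 2-fold, as log2 ratios, were these. In thinned cells, Cdkn1a was 0.46 in rescue over KO, Rrm2 -0.082 and Reg1 -3.36 in KO over control, the goblet median 0.39 in KO over control and the regenerative median 0.027 in rescue over control. Reg1 in KO over control was also -0.25 with Top2a at 0, -0.89 without the deepest cells, -0.67 at 500 Mcm CPM and -0.54 with cells weighted equally. With cells chosen by 8 other S-phase genes, rescue over KO was -4.52 for Guca2a, -2.37 for Selm and -4.21 for the goblet median. With Top2a at 0, rescue over KO was -0.96 for Rnase1 and -0.17 for the goblet median. The G2 and mitosis median of KO over control ran from 0.98 to 2.04, and the stem cell median from -1.66 to -0.997, over the alternatives run. The G2 and mitosis median of rescue over KO ran from -2.58 to -0.23 and that of rescue over control from -0.75 to 1.48.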
